A study of Rattus norvegicus with 6 samples.

Results

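The 9 genes Furin, Ctsl, Ctsb, Nrp1, Dpp4, Anpep, Bsg, Adam17 and St6gal1, which encode receptors, proteases and a sialyltransferase tied to the entry of respiratory viruses into cells, were followed in lung RNA of wild-type rats and of rats with an edited Tmprss2 gene. The 9 genes were selected by symbol, each matched a single row among the 40995 genes of the count table, and all 9 passed the filter on low counts. The animals were untreated rats on a Sprague-Dawley background: 3 wild-type (WT) rats and 3 rats of the crTMPRSS2 knockout (KO) line, made by editing Tmprss2 with CRISPR/Cas9. Whole lung tissue was sampled once from each animal and its polyadenylated RNA was sequenced. The sources used here do not give sex, age, litter, the number of founders of the KO line or the sequence of the edit.

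Enveloped respiratory viruses enter a cell after a surface protein or sugar is bound and a host protease cuts the viral fusion protein. Depending on the virus, the cut can be made in the trans-Golgi network by furin, at the cell surface by TMPRSS2, or in the endosome by cysteine cathepsins. TMPRSS2 is a membrane-bound serine protease of lung epithelium. For some of these viruses, but not all, the cathepsins are an alternative route where TMPRSS2 is missing. Dipeptidyl peptidase 4, aminopeptidase N, neuropilin 1 and basigin are surface proteins that have been described as receptors or attachment factors of human coronaviruses, and the sialyltransferase encoded by St6gal1 adds the sialic acid that human influenza viruses bind. These roles are known mostly from human proteins, and each gene also has a function in the uninfected lung. The comparison asks whether the RNA of these genes in the uninfected lung differs in the edited line.

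Total counts ranged from 29933359 to 36895162 per library. WT replicate 1 stood apart: its Pearson correlation with the other libraries, across genes, was 0.936 to 0.948, against 0.979 to 0.986 among the other 5. Skeletal muscle markers (8 genes) summed to 8841 CPM (counts per 1000000, scaled for library composition) and squamous epithelium markers (8 genes) to 3270 CPM in that library, against at most 50.2 and 12.6 CPM in any other. Alveolar type 2 markers, led by the surfactant protein genes, were present in every library and summed to 18027 CPM or more. Tmprss2 itself stood at 50.5 to 65.7 CPM in WT and 46.1 to 56.4 CPM in KO, with an edgeR adjusted p of 0.508. Its log2 fold change without WT replicate 1 was -0.36 (edgeR adjusted p = 0.0589), with both WT libraries above all 3 KO libraries. The mRNA was present in every KO library, so its level alone does not check the genotype labels. The tests of the 9 entry genes are therefore given with all 6 libraries and without WT replicate 1, where 2 WT libraries remain; means ± SD cover all 3 WT libraries.

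None of the 9 entry genes passed the test with all 6 libraries, and all 9 had a lower fitted level in KO. The log2 fold changes of KO against WT ran from -0.47 for Ctsl to -0.09 for St6gal1, with a median of -0.20, beside a median of 0.00 over the 18464 genes tested. The count of 0 of 9 was read against a background of 0.0542% of all tested genes called by edgeR's quasi-likelihood test at an adjusted p under 0.05. At an unadjusted p under 0.05, 4 of 9 were found (Ctsl, Anpep, Ctsb and Bsg), beside 11.3% of all genes, and 50.3% of all genes lay below 0. For 6 of 9 genes (Ctsl, Ctsb, Anpep, Bsg, Dpp4 and Adam17) every KO library lay below every WT library, a pattern seen in 11.4% of all genes. DESeq2 and limma-voom also called 0 of the 9 genes, beside 501 and 7 of all 18464 genes.

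Without WT replicate 1, Ctsl and Anpep passed, both lower in KO, so 2 of 9 genes fell beside 2.34% of all 18994 tested genes (3.99% in either direction). The median log2 fold change of the 9 genes was -0.17, beside 0.00 over all genes, 9 of 9 were below 0, beside 49.3% of all genes, and 5 of 9 had an unadjusted p under 0.05, beside 17.8% of all genes. The KO libraries lay below both remaining WT libraries for 6 of 9 genes, beside 17.3% of all genes. Both calls lay just under the threshold in the edgeR fit. DESeq2 (adjusted p 0.0023 for Ctsl and 0.0047 for Anpep) and limma-voom (adjusted p 0.0439 and 0.0379) also made both calls. Neither was made with upper quartile normalization (edgeR adjusted p 0.0715 for Ctsl and 0.0763 for Anpep) or on the FPKM scale, and with a further library left out the count was 0, except without WT replicate 3, where it was 1 (Ctsl). With all 6 libraries but weights for sample quality in limma-voom, a setting chosen after seeing the data, 4 genes passed as lower: Ctsl, Anpep, Ctsb and Bsg. In that setting 1676 of all 18464 tested genes passed, 898 of them lower.

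**Figure D1:**
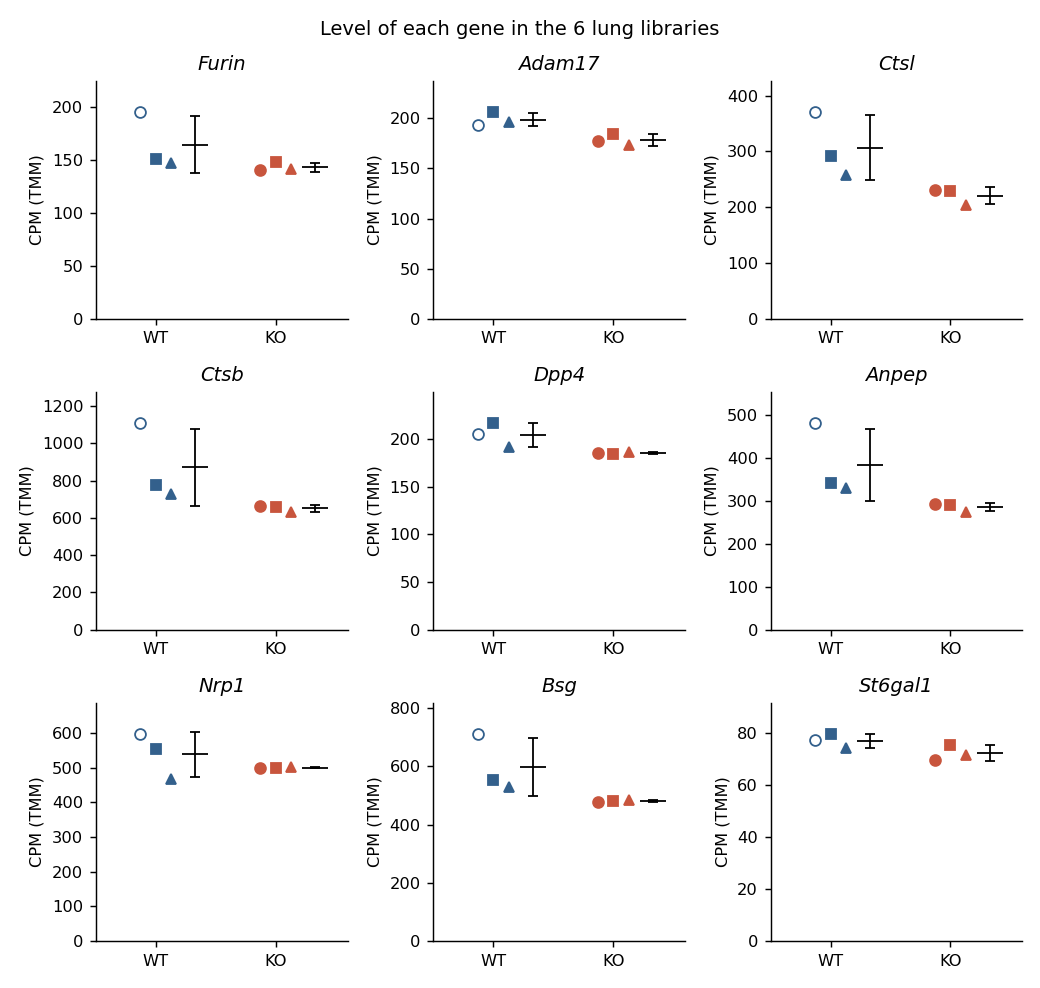
Level of each of the 9 entry genes, in CPM on a linear axis from 0, in 3 WT (blue) and 3 KO (red) libraries; circles, squares and triangles are replicates 1, 2 and 3, the open circle is WT replicate 1, and the black bars are the mean ± SD. WT replicate 1 is the highest of the 6 libraries for Furin, Ctsl, Ctsb, Nrp1, Anpep and Bsg.

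Levels per gene length differed widely among the 9 genes. FPKM are reads per kilobase of gene length, scaled for library size as computed by the authors. They averaged 447 ± 110 in WT and 333 ± 9.79 in KO for Ctsb (SD, n = 3 each), the highest of the 9. For St6gal1, the lowest, they averaged 14.2 ± 0.502 and 13.2 ± 0.530. Bsg followed Ctsb, at 358 ± 61.9 FPKM in WT and 286 ± 2.43 in KO, and then came Ctsl, at 223 ± 43.9 and 159 ± 11.02. Nrp1 (88.0 ± 11.1 and 81.1 ± 0.223 FPKM) and Anpep (96.9 ± 22.0 and 71.7 ± 2.55 FPKM) formed a middle pair. Adam17 (48.2 ± 1.39 and 43.1 ± 1.30 FPKM), Dpp4 (41.9 ± 2.54 and 37.8 ± 0.309 FPKM) and Furin (37.3 ± 6.34 and 32.3 ± 0.848 FPKM) lay close together below them.

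The ranges over the 6 libraries did not overlap between Bsg and Ctsl, Ctsl and Nrp1, Anpep and Adam17, or Furin and St6gal1. They overlapped for the other neighbours in the order. Nrp1 and Anpep did not differ beyond their spread, with Nrp1 the higher in 4 of 6 libraries. Dpp4 exceeded Furin in 5 of 6. Ctsb exceeded Bsg, and Adam17 exceeded Dpp4, in all 6 libraries although their ranges overlapped. The level of Ctsb relative to Ctsl, the ratio of their FPKM, was 2.00 ± 0.115 in WT and 2.09 ± 0.0875 in KO (SD, n = 3 each). The ratio ran from 1.88 to 2.11 in WT and from 2.04 to 2.19 in KO, so the groups overlapped.

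**Figure D2:**
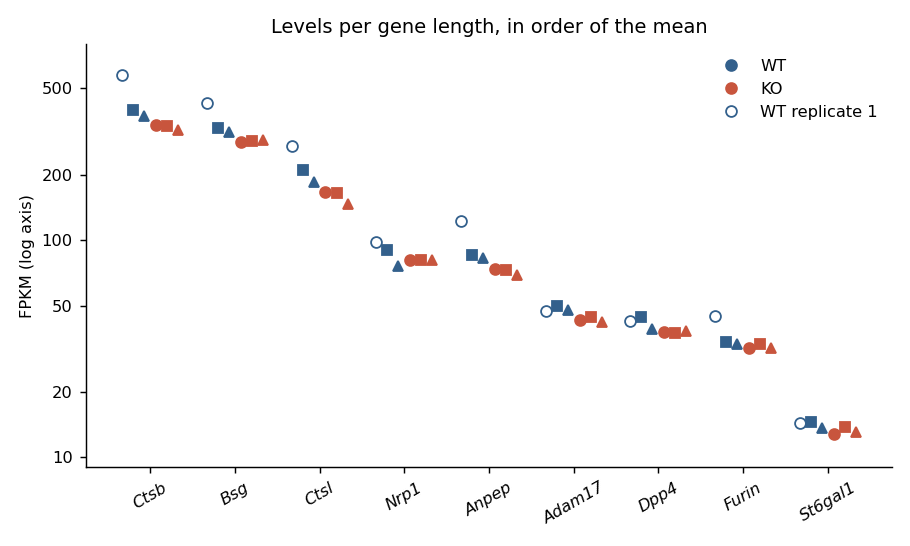
FPKM of the 9 entry genes in each library on a logarithmic axis, ordered by the mean over 6 libraries; WT is blue, KO is red, symbols are replicates 1 to 3 and the open circle is WT replicate 1. The levels run from 573 FPKM for Ctsb in WT replicate 1 to 12.8 FPKM for St6gal1 in KO replicate 1.

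The stretch before the start of transcription is shown for 4 of the genes, since the fold changes of 3 of them (Ctsl, Anpep and Bsg) were among the lowest of the 9 and that of Nrp1 was close to 0 without WT replicate 1. RefSeq gave such a stretch for 7 of the 9 genes in build GRCr8, which is not the build of the counts. Each line is the 250 bases before the annotated start, 5′ to 3′ on the strand of the gene. Capitals mark GC boxes (GGGCGG, read on both strands) and the CACGTG core of the motif shared by many lysosomal genes.
Ctsl, chr17:769854-770103, plus strand: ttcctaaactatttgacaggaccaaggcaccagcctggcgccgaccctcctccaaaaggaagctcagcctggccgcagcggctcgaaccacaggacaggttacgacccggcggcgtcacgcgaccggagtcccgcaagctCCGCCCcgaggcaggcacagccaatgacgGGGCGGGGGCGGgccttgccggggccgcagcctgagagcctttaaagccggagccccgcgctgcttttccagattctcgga
Anpep, chr1:143195102-143195351, minus strand: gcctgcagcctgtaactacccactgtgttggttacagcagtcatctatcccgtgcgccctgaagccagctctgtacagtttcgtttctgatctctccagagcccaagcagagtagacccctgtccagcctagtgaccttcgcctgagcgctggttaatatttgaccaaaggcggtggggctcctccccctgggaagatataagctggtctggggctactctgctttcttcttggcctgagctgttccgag
Bsg, chr7:10651006-10651255, minus strand: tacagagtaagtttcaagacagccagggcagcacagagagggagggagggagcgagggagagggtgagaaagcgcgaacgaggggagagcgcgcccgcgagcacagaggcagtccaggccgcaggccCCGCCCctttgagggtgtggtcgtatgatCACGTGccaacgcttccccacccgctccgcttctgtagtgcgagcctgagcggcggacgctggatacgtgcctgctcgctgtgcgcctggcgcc
Nrp1, chr19:73256307-73256556, plus strand: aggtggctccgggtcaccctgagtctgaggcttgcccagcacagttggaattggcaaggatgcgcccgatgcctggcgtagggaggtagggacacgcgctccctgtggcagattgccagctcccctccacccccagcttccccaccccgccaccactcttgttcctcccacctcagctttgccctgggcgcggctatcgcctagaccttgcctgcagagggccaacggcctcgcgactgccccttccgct
Ctsl held 3 GC boxes, at 110 to 105, 81 to 76 and 75 to 70 bases before the start, and a CCAAT box (CCAAT, both strands) at 90 to 86. Bsg held 1 GC box, at 123 to 118 bases before the start, and 1 CACGTG, at 94 to 89. Neither a GC box nor CACGTG was found in the windows of Anpep or Nrp1, Nrp1 held a CCAAT box at 201 to 197 bases before the start, and TATAAA (both strands) was in none of these 4. Of 33469 promoters of the same length, 30.5% held a GC box, 5.59% CACGTG, 34.0% CCAAT and 12.9% TATAAA. The windows of Ctsl, Bsg and Nrp1 had a G and C content of 66.8%, 66.4% and 66.4%, and that of Anpep 55.6%, beside a median of 51.2% over all promoters. These matches describe the letters and were not tied to the expression values.

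Furin encodes the proprotein convertase that cuts after paired or clustered basic residues, in growth factors, receptors and viral envelope proteins. Furin (chromosome 1, 134348142 to 134361182 of mRatBN7.2, minus strand) measured 196, 151 and 147 CPM in the WT libraries (replicates 1, 2 and 3) and 141, 148 and 141 CPM in the KO libraries. The groups overlapped, since KO replicate 2 lay above WT replicate 3, and the WT mean was raised by replicate 1. KO against WT gave a log2 fold change of -0.20 (edgeR adjusted p = 0.556, SE 0.13), and -0.06 (adjusted p = 0.673, SE 0.06) without that library. Among 7 tested proprotein convertases, Furin included, 0 were called with 6 libraries (0.0542% of all genes) or without WT replicate 1 (3.99%). Their median log2 fold change was -0.20 (-0.06 without WT replicate 1). Pcsk5, which like furin cuts at basic sites, averaged 53.0 ± 3.36 CPM in WT against 45.03 ± 4.03 CPM in KO (SD, n = 3 each), and Pcsk7 at 61.8 ± 3.38 and 56.5 ± 2.72 CPM.

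Ctsl and Ctsb encode the lysosomal cysteine proteases cathepsin L and cathepsin B, which degrade endocytosed protein and can activate viral fusion proteins in the endosome. Ctsl (chromosome 17, 764370 to 770533, plus strand) measured 371, 291 and 257 CPM in the WT libraries (replicates 1, 2 and 3) and 231, 228 and 203 CPM in the KO libraries. All 3 KO libraries lay below all 3 WT libraries. With 6 libraries the estimate was a log2 fold change of -0.47 (SE 0.15, with a 95% interval of -0.82 to -0.12; edgeR adjusted p = 0.339), or 1.39-fold lower. Without WT replicate 1 Ctsl fell by 0.31 in log2 units (edgeR adjusted p = 0.0488, SE 0.08), or 1.24-fold.

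Ctsb (chromosome 15, 37389636 to 37410508, plus strand) measured 1108, 776 and 728 CPM in the WT libraries (replicates 1, 2 and 3) and 666, 660 and 630 CPM in the KO libraries. The groups did not overlap, and WT replicate 1 lay 1.47-fold above the mean of the other 2 WT libraries, the largest such ratio of the 9 genes. The fitted difference was a log2 fold change of -0.42 (edgeR adjusted p = 0.420, SE 0.17), and it was -0.21 (adjusted p = 0.0673, SE 0.05) without that library. Ctsb did not pass in either edgeR fit. It passed without WT replicate 1 in DESeq2 (adjusted p 0.0106) and without the filter on low counts (edgeR adjusted p 0.0082).

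Other cysteine cathepsins lay below 0 beside Ctsl and Ctsb. Of the 15 tested genes of the list of cysteine cathepsins, legumain and cystatins, their inhibitors, 13 lay below 0 with 6 libraries (median log2 fold change -0.38), beside 50.3% of all genes. In that fit 0 were called, beside 0.0542% of all genes, and 12 had an unadjusted p under 0.05, beside 11.3%. Without WT replicate 1 the median was -0.23, beside 0.00 over all genes, and 3 were called, all lower, beside 2.34% of all genes: Ctsl, Ctsz and Ctsh. Ctsz, the carboxypeptidase cathepsin Z, measured 151, 122 and 110 CPM in the WT libraries (replicates 1, 2 and 3) and 85.3, 93.2 and 88.6 CPM in the KO libraries, and fell by 0.38 in log2 units (edgeR adjusted p = 0.0168, SE 0.07). Ctsh, the aminopeptidase cathepsin H, which takes part in surfactant protein processing in alveolar type 2 cells, measured 885, 731 and 692 CPM in the WT libraries (replicates 1, 2 and 3) and 611, 585 and 539 CPM in the KO libraries, and fell by 0.30 (adjusted p = 0.0280, SE 0.06). In both genes the groups did not overlap. The member furthest above 0 was Ctsw, a cathepsin of cytotoxic lymphocytes, at 3.39 to 6.09 CPM in WT and 6.65 to 7.87 CPM in KO, which was not called.

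Markers of several lung cell types lay below 0 together with the cathepsins and Anpep, and others did not. Of the 6 club and secretory markers 5 were above 0 in both fits, with 2 called higher without WT replicate 1. They summed to 3879 to 5010 CPM in WT and 5953 to 6594 CPM in KO. Of the 6 ciliated markers 5 were above 0 in both fits (0 called), with sums of 610 to 909 and 592 to 609 CPM. Of the 6 alveolar type 1 markers 4 were below 0 with 6 libraries and 3 without WT replicate 1 (0 called). The 8 alveolar type 2 markers summed to 21436 to 34943 CPM in WT and 18027 to 19793 CPM in KO, and all 8 lay below 0 in log2 fold change (median -0.41, and -0.19 without WT replicate 1, where 2 were called lower). The 8 alveolar macrophage markers summed to 223 to 252 CPM in WT and 171 to 203 CPM in KO; of the 6 tested, 5 were below 0 (6 without WT replicate 1, with 1 called lower). The defining macrophage genes Marco and Chil3 were at or near 0 in every library. The 7 markers of monocytes and interstitial macrophages summed to 403 to 593 CPM in WT and 399 to 407 CPM in KO, with 5 of 7 below 0 in both fits and 0 called. Of the 7 fibroblast markers, which summed to 5357 to 9188 CPM in WT and 4116 to 4315 CPM in KO, 6 were below 0 in both fits and 3 were called lower without WT replicate 1 (median -0.30). The 6 mesothelium markers summed to 171 to 216 CPM in WT and 94.9 to 145 CPM in KO, all 6 were below 0 in both fits, and 5 were called lower without WT replicate 1 (median -1.02). Of all genes, 50.3% were below 0 with 6 libraries and 49.3% without WT replicate 1. In the latter fit 2.34% of all genes were called lower (3.99% in either direction). In whole tissue fewer cells of a type and less RNA per cell cannot be told apart, and the part of these cells in the values of the cathepsins and Anpep was not tested.

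**Figure D3:**
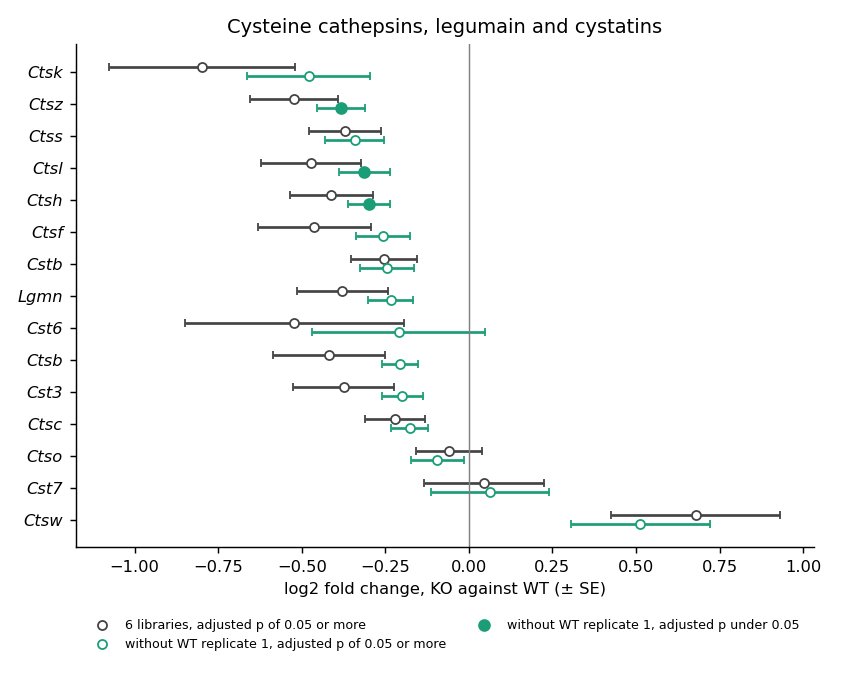
Log2 fold change of KO against WT (± SE) for the 15 tested genes of the list of cysteine cathepsins, legumain and cystatins, with all 6 libraries (grey) and without WT replicate 1 (green); filled symbols have an edgeR adjusted p under 0.05. Of the genes, 13 lie left of 0 in both fits, and Ctsz, Ctsl and Ctsh are filled.

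Adam17 encodes the metalloprotease that releases tumour necrosis factor and ligands of the EGF receptor from the cell surface. Adam17 (chromosome 6, 40872936 to 40920700, minus strand) measured 194, 206 and 196 CPM in the WT libraries (replicates 1, 2 and 3) and 177, 185 and 173 CPM in the KO libraries. The KO libraries lay below the WT libraries, and WT replicate 1 was the lowest of its group. The log2 fold change was -0.16 (edgeR adjusted p = 0.524, SE 0.09), and -0.17 (adjusted p = 0.146, SE 0.06) without WT replicate 1, so Adam17 was among the genes whose estimate that library moved least. The 12 genes of the ADAM sheddases and their regulators include the iRhoms that carry ADAM17 to the surface. They had 0 calls with 6 libraries (0.0542% of all genes) and 0 without WT replicate 1 (3.99%). In both fits 6 were below and 6 above 0, beside 50.3% and 49.3% of all genes below 0.

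Substrates of ADAM17 did not move one way. Of 13 tested, 0 were called with 6 libraries (0.0542% of all genes). Without WT replicate 1, 3 were called (3.99% of all genes), of which 2 are described here. Areg, the EGF receptor ligand amphiregulin, measured 5.15, 5.34 and 5.25 CPM in the WT libraries (replicates 1, 2 and 3) and 1.52, 1.04 and 1.499 CPM in the KO libraries, and fell by 1.96 in log2 units without WT replicate 1 (edgeR adjusted p = 0.00287, SE 0.25). In the authors' deposited table, whose 192 genes include Areg but none of the 9 entry genes, its log2 fold change is -1.96. Tnfrsf1b, a receptor of tumour necrosis factor, measured 75.3, 71.2 and 61.1 CPM in the WT libraries (replicates 1, 2 and 3) and 97.5, 106 and 90.3 CPM in the KO libraries, and rose by 0.57 without WT replicate 1 (adjusted p = 0.00858, SE 0.09). Lymphocyte markers lay above 0 in the fit without WT replicate 1: 7 of 7 for T cells (1 called higher), 6 of 6 for B cells (5 called higher) and 7 of 7 for NK cells (5 called higher). In that fit 314 of all 18994 genes were called higher, and 49.3% lay below 0. The 7 T cell markers summed to 139 to 151 CPM in WT and 175 to 203 CPM in KO, the 6 B cell markers to 44.2 to 88.4 and 115 to 142 CPM, and the 7 NK markers to 17.03 to 85.5 and 158 to 161 CPM. Neutrophil markers changed direction with the fit: 5 of 6 were below 0 without WT replicate 1 and 5 of 6 above 0 with 6 libraries. They summed to 17.03 to 73.9 CPM in WT and 51.02 to 68.4 CPM in KO. The part of these cells in the value of Tnfrsf1b was not tested.

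Anpep encodes aminopeptidase N (CD13), a zinc peptidase of the cell surface that trims peptides. Anpep (chromosome 1, 133767332 to 133810137, minus strand) measured 482, 341 and 331 CPM in the WT libraries (replicates 1, 2 and 3) and 294, 290 and 275 CPM in the KO libraries. The groups did not overlap, and WT replicate 1 lay 1.43-fold above the mean of the other 2 WT libraries. With 6 libraries the estimate was a log2 fold change of -0.43 (SE 0.16, with a 95% interval of -0.80 to -0.06; edgeR adjusted p = 0.394). Without WT replicate 1 Anpep fell by 0.23 in log2 units (edgeR adjusted p = 0.0478, SE 0.06), or 1.17-fold. Of 9 tested aminopeptidases Anpep was the only one called in that fit, beside 3.99% of all genes. With 6 libraries 0 were called, beside 0.0542%. Lta4h, leukotriene A4 hydrolase, was not called, with averages of 113 ± 13.97 CPM in WT against 89.5 ± 5.67 CPM in KO (SD, n = 3 each), and neither was Erap1, which trims peptides in the endoplasmic reticulum, at 94.0 ± 2.08 and 84.8 ± 1.599 CPM.

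Dpp4 encodes dipeptidyl peptidase 4 (CD26), a serine peptidase of epithelium, endothelium and T cells that inactivates incretins and chemokines. Dpp4 (chromosome 3, 46962243 to 47043870, minus strand) measured 205, 216 and 191 CPM in the WT libraries (replicates 1, 2 and 3) and 185, 184 and 186 CPM in the KO libraries. The groups did not overlap, with a gap between WT replicate 3 and KO replicate 3 that was narrower than the spread within WT. KO against WT gave a log2 fold change of -0.14 in both fits (SE 0.09, edgeR adjusted p = 0.563 with 6 libraries, and SE 0.06, adjusted p = 0.302 without WT replicate 1). Of the 7 tested genes of the family, 0 were called with 6 libraries (0.0542% of all genes) and 1 without WT replicate 1 (3.99%). This was Dpp7, a lysosomal dipeptidyl peptidase, with 91.4, 72.4 and 64.96 CPM in the WT libraries and 47.8, 43.5 and 45.2 CPM in the KO libraries, which fell by 0.59 in log2 units (edgeR adjusted p = 0.00278, SE 0.08).

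Nrp1 encodes neuropilin 1, a coreceptor for VEGF and class 3 semaphorins on endothelium and neurons that binds peptides ending in the basic motif furin leaves. Nrp1 (chromosome 19, 56359455 to 56514628, plus strand) measured 596, 552 and 468 CPM in the WT libraries (replicates 1, 2 and 3) and 498, 500 and 500 CPM in the KO libraries. The KO libraries lay inside the WT range and were, relative to their mean, closer to each other than for any other of the 9 genes, with a SD of 1.41 CPM about a mean of 499 CPM. The fitted difference was a log2 fold change of -0.11 (SE 0.11, with a 95% interval of -0.38 to 0.16; edgeR adjusted p = 0.686), and -0.03 (adjusted p = 0.882, SE 0.07) without WT replicate 1. Endothelial markers (8 genes) summed to 3691 to 6263 CPM in WT and 3472 to 3670 CPM in KO. All 8 were below 0 with 6 libraries, beside 50.3% of all genes, and 0 were called. Without WT replicate 1, 5 were below 0 and 3 above, beside 49.3% of all genes below 0. In that fit 2 were called lower, beside 2.34% of all genes. The part of these cells in the value of Nrp1 was not tested.

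Partners of neuropilin 1 were measured in the same libraries. Of 17 tested neuropilins, plexins, class 3 semaphorins and VEGF genes 0 were called with 6 libraries, beside 0.0542% of all genes. Without WT replicate 1, 3 were called, all lower and all semaphorins, beside 2.34% of all genes called lower. Sema3d measured 10.9, 16.6 and 20.3 CPM in the WT libraries (replicates 1, 2 and 3) and 8.42, 11.3 and 11.3 CPM in the KO libraries, and fell by 0.84 in log2 units (edgeR adjusted p = 0.0168, SE 0.16). Sema3c, with 190, 328 and 290 CPM in the WT libraries and 255, 221 and 252 CPM in the KO libraries, fell by 0.35 (adjusted p = 0.0372). Sema3a, with 13.9, 26.7 and 31.9 CPM in the WT libraries and 21.6, 21.2 and 23.1 CPM in the KO libraries, fell by 0.41 (adjusted p = 0.0492). For all 3 genes WT replicate 1 was the lowest WT library, and with it the groups overlapped.

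Bsg encodes basigin (CD147), the chaperone that brings monocarboxylate transporters to the plasma membrane and a binding partner of cyclophilins. Bsg (chromosome 7, 9993170 to 10000387, minus strand) measured 710, 553 and 528 CPM in the WT libraries (replicates 1, 2 and 3) and 476, 479 and 484 CPM in the KO libraries. The groups did not overlap. The log2 fold change was -0.32 (edgeR adjusted p = 0.432, SE 0.13), and -0.17 (adjusted p = 0.101, SE 0.05) without WT replicate 1, a value that passed in DESeq2 (adjusted p 0.0361). Of 11 tested genes of the basigin list, 9 were below 0 with 6 libraries, beside 50.3% of all genes. Without WT replicate 1, 7 were below 0, beside 49.3% of all genes, and 1 was called, beside 3.99%. This was Slc16a1, the monocarboxylate transporter MCT1 that basigin carries, with 56.4, 44.5 and 40.1 CPM in the WT libraries and 31.3, 30.5 and 30.2 CPM in the KO libraries, which fell by 0.47 in log2 units (edgeR adjusted p = 0.0111, SE 0.08). Ppib, cyclophilin B, was not called, with averages of 221 ± 46.1 CPM in WT against 169 ± 2.30 CPM in KO (SD, n = 3 each).

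St6gal1 encodes the Golgi sialyltransferase that caps galactose on N-glycans of epithelium and B cells. St6gal1 (chromosome 11, 77526837 to 77653474, minus strand) measured 77.3, 79.4 and 74.1 CPM in the WT libraries (replicates 1, 2 and 3) and 69.5, 75.4 and 71.3 CPM in the KO libraries. The groups overlapped, since KO replicate 2 lay above WT replicate 3. KO against WT gave a log2 fold change of -0.09 in both fits (SE 0.09 with a 95% confidence interval of -0.30 to 0.11 and an edgeR adjusted p of 0.661 with 6 libraries, and an adjusted p of 0.568 without WT replicate 1). Of 16 tested sialyltransferases 0 were called with 6 libraries (0.0542% of all genes) or without WT replicate 1 (3.99%). St3gal1, which caps O-glycans, had the smallest p of them, with averages of 404 ± 80.9 CPM in WT against 289 ± 18.8 CPM in KO (SD, n = 3 each), with edgeR adjusted p 0.347 and 0.0633. Of 10 tested genes of sialic acid supply and sialidases 0 were called in either fit, beside the same shares of all genes.

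**Figure D4:**
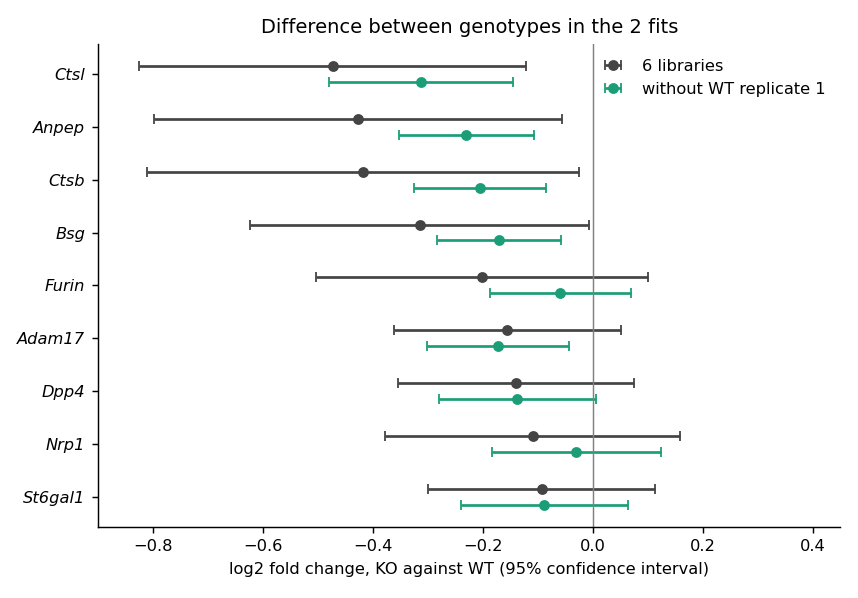
Log2 fold change of KO against WT with its 95% confidence interval for the 9 entry genes, with all 6 libraries (grey) and without WT replicate 1 (green). The intervals of Ctsl, Anpep, Ctsb and Bsg lie below 0 in both fits before adjustment, and those of Furin, Nrp1, Dpp4 and St6gal1 span 0 in both.

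Other receptors and attachment factors of viruses, and factors that restrict entry, were read from the same fits. Of 34 tested receptors and attachment factors 0 were called with 6 libraries, beside 0.0542% of all genes. Without WT replicate 1, 3 were called, all lower, beside 2.34% of all genes. Ephb4, which shares the ephrin ligand B2 with henipaviruses, measured 356, 238 and 228 CPM in the WT libraries (replicates 1, 2 and 3) and 166, 174 and 183 CPM in the KO libraries, and fell by 0.42 in log2 units (edgeR adjusted p = 0.00566, SE 0.06). Itgb6, the integrin subunit that activates TGF-beta on epithelium, measured 147, 153 and 169 CPM in the WT libraries (replicates 1, 2 and 3) and 108, 125 and 106 CPM in the KO libraries, and fell by 0.51 (adjusted p = 0.00834, SE 0.08). Efnb2, the ephrin itself, measured 434, 459 and 405 CPM in the WT libraries (replicates 1, 2 and 3) and 366, 348 and 335 CPM in the KO libraries, and fell by 0.31 (adjusted p = 0.0337, SE 0.07). The groups did not overlap in any of the 3 (11.4% of all genes with 6 libraries). Of 12 factors that restrict entry 1 was called without WT replicate 1, beside 3.99% of all genes. This was the guanylate-binding protein gene Gbp5, which rose by 0.40 (edgeR adjusted p = 0.0261, SE 0.08). Its groups overlapped once WT replicate 1 was included.

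Over the 12 lists together, 153 genes other than the 9 were tested. With 6 libraries 0 of them were called (0.0542% of all genes), 105 were below 0 (50.3% of all genes), and their median log2 fold change was -0.18. Without WT replicate 1, 11 were called lower, beside 2.34% of all genes, and 3 higher (3.99% of all genes in either direction). In that fit 100 were below 0, beside 49.3% of all genes, and the median was -0.06. These calls were not recomputed with a further library left out. In that fit the median of the 9 entry genes (-0.17) lay below that of the 153.

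**Figure D5:**
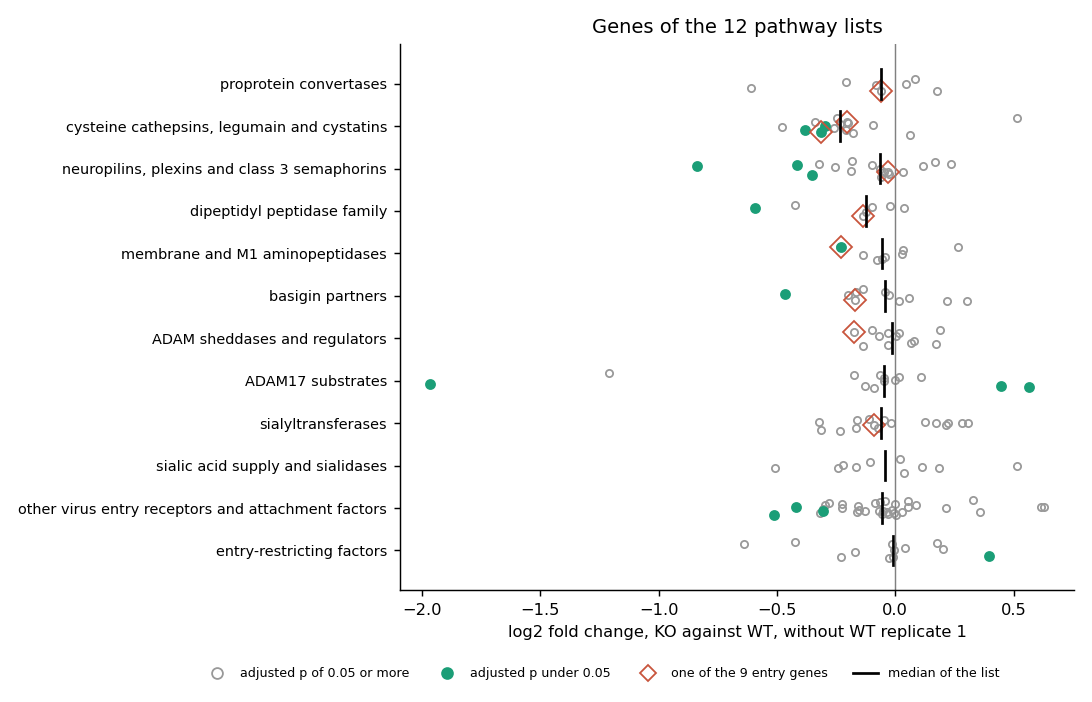
Log2 fold change of KO against WT without WT replicate 1 for every tested gene of the 12 lists; filled green points have an edgeR adjusted p under 0.05, red diamonds are the 9 entry genes, black lines are the median of each list, and the vertical scatter has no meaning. The lowest point is Areg, at -1.96.

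The genes whose pattern over the 6 libraries was most like that of each entry gene were found by Pearson correlation of log2 CPM among 10508 genes with a mean of at least 10 CPM. As the highest of so many values they are a description. The r of the named pairs ran from 0.977 to 0.999 without WT replicate 1, and it was higher than with 6 libraries for both genes named for Dpp4, both named for Adam17, and Kcnk3. Closest to Ctsb were Bpgm and Psap (r = 1.000 and 0.998 over 6 libraries), the latter the precursor of the lysosomal saposins. Psap measured 1909, 1273 and 1201 CPM in the WT libraries (replicates 1, 2 and 3) and 1090, 1090 and 1054 CPM in the KO libraries. Closest to Ctsl were Lta4h and Pak1ip1 (0.996 and 0.995), to Anpep Capg and Mrc2 (0.998 both), and to Bsg S100a11 and Fcgrt (1.000 and 0.999). Closest to Nrp1 were Nr1h3 and Adamts1 (0.997 and 0.996), to Dpp4 Wdr4 and Dtx4 (0.973 and 0.970), to Adam17 Nrep and Desi2 (0.989 and 0.981), and to St6gal1 Kcnk3 and Serpinb8 (0.990 and 0.979). The gene closest to Furin was Casq1, calsequestrin of skeletal muscle (r = 0.999), at 125 CPM in WT replicate 1 and at most 3.77 CPM elsewhere, followed by C1rl (0.998). Among the 9 entry genes themselves r ran from 0.41 to 1.00 with a median of 0.78 over 36 pairs, and from 0.27 to 0.99 without WT replicate 1.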

How the data were processed

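The submitters' processing notes name build mRatBN7.2 and, without roles or settings, CASAVA, DESeq2 1.42.0, featureCounts 2.0.6, HISAT2 2.2.1 and StringTie 2.2.3. The deposited files hold raw counts for each gene, FPKM values computed by the authors, and a table of their own comparison for 192 genes, holding a size-factor scaled signal per library, p-values and log2 fold changes. Strand handling is not given in the sources used here. Of the entry genes, 4 overlap another listed gene, whose counts were at most 0.657% of theirs.

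The deposited counts were analysed by edgeR's quasi-likelihood test (version 4.0.16, R 4.3.3) after filterByExpr (minimum count 10) and TMM scaling. Genotype was the only term, and p-values were adjusted by Benjamini-Hochberg over all tested genes at 0.05. The SE of a log2 fold change was its size over the root of F. CPM use TMM sizes over 6 libraries. No set test was run. Levels between genes use FPKM alone. Alternatives were RLE and upper quartile scaling, DESeq2 1.42.0, limma 3.58.1 (voom, and log2 of FPKM plus 1 or 0.1), other filters, a replicate block, and leaving out each library. The fit was tested on simulated data. Replicates are biological per the labels.

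The entry genes and lists were chosen with earlier results of these data known. Of each list the text names the genes called in either fit (at most 4), or otherwise those with the smallest p up to 2, where a result turns on them, and for each entry gene the 2 genes most like it. All 174 list symbols matched the table by name, and 3 of 115 marker symbols matched through RefSeq (GRCr8), which also gave the promoter sequences. The values of 1 called list gene are not reported here.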

Additional observations from a re-analysis of the deposited data

How the results depend on the processing

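With 6 libraries, 10 genes were called and 0 of the 9 entry genes. The entry genes kept log2 fold changes below 0 in all 144 values over 16 alternatives, of which 6 newly passed the threshold. DESeq2 called 501 genes, and limma-voom with sample quality weights, chosen after seeing the data, 1676 genes and 4 entry genes. Leaving out 1 library gave 1 to 758 genes and 0 to 2 entry genes, both highest without WT replicate 1; the genes called were 1 or 2 without WT replicate 2 or any KO replicate. The replicate block gave 2 genes. The numbers are not known to pair the rats: deviations of WT and KO rats of the same number correlated at -0.08, 0.03 and -0.08. No library correlated best with the library of its own number in the other group.

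Without WT replicate 1, 758 genes and 2 entry genes were called, and 125 of 126 values over 14 alternatives were below 0. DESeq2 gave 1188 genes and 4 entry genes, no filter 1707 genes, the FPKM scale 180 (pseudocount 1) or 236 genes (0.1) and 0 entry genes, upper quartile scaling 0, and a minimum of 1 CPM or the replicate block 1 entry gene. Leaving out a further library, chosen after seeing the data, gave 233 to 522 genes and 0 to 1 entry genes, and turned Nrp1 from -0.15 (without WT replicate 3) to 0.10 (without WT replicate 2); where 1 WT library was left, it was assumed to vary like the KO libraries. The causes were not tested. Counts of the entry genes ran from 2147 to 32735 per library, and 3 rats per group limit the precision.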
